A study of Rattus norvegicus with 4 samples.

Results

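Genes that neurons switch on during activity include transcription factors and effectors, whose products act directly inside the cell, at the synapse or outside the cell. Described here are the array signals of 5 such effector genes, Vgf, Dusp5, Nptx2, Ptgs2 and Plat, and of the probe set AF030088UTR#1_at, in rat cortical neurons with and without depolarization. The members were taken by gene symbol from the platform annotation, which gave 6 probe sets, plus AF030088UTR#1_at by its identifier, so 6 members with 7 of the 1322 probe sets on the array, where the annotation named 720 genes. All 7 passed the filter on dim probe sets, which kept 947 for testing.

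Cells came from rat cortex at embryonic day 17 and were cultured for 14 days in Neurobasal medium with B27 supplement. The 2 control samples received phosphate-buffered saline and the 2 KCl samples 25 mM KCl, each for 4 h, and they are called control 1, control 2, KCl 1 and KCl 2. Raised external potassium depolarizes every cell in the dish, so the treatment is not a pattern of synaptic firing. Groups were read from the titles and treatment texts, which fit each other, while the description field calls all samples, KCl included, non-activated. No label says that the 2 samples of a group were separate cultures, so their spread may be technical. Each array is bulk RNA, in which fewer cells of a type and less RNA per cell cannot be told apart.

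Depolarization opens voltage-gated calcium channels, and the calcium that enters starts kinase signalling to the transcription factors CREB and SRF. Their binding letters, the cAMP response element (CRE) and the CArG box, lie near the start of many activity-regulated genes. Among the effectors, VGF is a secretory protein that is cut into signalling peptides, and DUSP5 is a nuclear phosphatase that removes the activating phosphates from the kinase ERK. NPTX2, also called NARP, is a secreted pentraxin that gathers AMPA-type glutamate receptors at synapses. PTGS2, or COX-2, makes prostaglandin precursors from arachidonic acid, and PLAT, tissue plasminogen activator, is a protease that converts plasminogen to plasmin. Homer proteins are scaffolds that join metabotropic glutamate receptors to internal calcium stores. Ania-3 is a short Homer1 transcript whose protein lacks the part that links Homer molecules together.

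AF030088UTR#1_at was proposed as a probe for ania-3. The platform table used here lists no gene for it, so that target was not checked, and the probe set is called by its identifier below.

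RefSeq promoter sequences (build GRCr8) were matched by symbol for Vgf, Dusp5, Nptx2, Ptgs2 and Homer1, and each runs from 250 bases before the annotated start to 50 after it. The stretch from 100 to 41 bases before the start is printed for the 4 genes whose window held any searched motif, because every match fell within it. Capitals mark the matches, each line reads 5′ to 3′ on the strand of the gene, and the positions are chr12:25277061-25277120 (minus strand) for Vgf, chr1:262543674-262543733 (plus) for Dusp5, chr12:15162086-15162145 (minus) for Nptx2 and chr13:64713963-64714022 (plus) for Ptgs2.
Vgf: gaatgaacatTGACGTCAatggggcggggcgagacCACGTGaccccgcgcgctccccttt
Dusp5: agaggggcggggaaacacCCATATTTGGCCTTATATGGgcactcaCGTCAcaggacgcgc
Nptx2: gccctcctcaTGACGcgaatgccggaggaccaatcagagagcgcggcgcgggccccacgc
Ptgs2: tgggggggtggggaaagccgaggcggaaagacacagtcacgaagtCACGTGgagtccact

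Both strands were searched for 5 motifs. Vgf held the complete CRE, TGACGTCA, starting 90 bases before its start, a motif found in 1.83% of all 33469 promoters of this length. The CRE core TGACG, read as CGTCA on the other strand, is part of the complete CRE and lay in 21.2% of all promoters. It was present in Vgf, in Nptx2 (90 bases before the start) and in Dusp5 (55 bases before the start). Dusp5 also held 2 adjoining CArG boxes, the core of the serum response element, starting 82 and 72 bases before its start, where 1.64% of all promoters held at least 1. The E-box CACGTG lay in Vgf and Ptgs2 and in 6.42% of all promoters. The AP-1 motif TGANTCA (7.33% of all promoters) matched none of the 5 windows, and the Homer1 window held none of the 5 motifs. A match describes letters in these windows and shows no binding, and a missing match says nothing of sequence elsewhere.

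The members were chosen by their known roles and by log2 changes between these same control and KCl arrays, so the differences below, and any count of members past a threshold, are descriptions and support nothing. Values are the deposited probe set intensities, in arbitrary units on a linear scale. Because probes differ in how strongly they bind, an intensity is compared only with the same probe set on other arrays. Folds are ratios of geometric means, and errors of log2 changes are moderated standard errors (SE) from limma over all 947 probe sets. The background comes from 19 control probe sets against bacterial and yeast RNA, whose median was 9.05 and whose highest value was 73.7. That ceiling comes from 1 of them, AFFX-PheX-3_at, and the highest value of the other 18 was 42.2.

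Vgf, Dusp5 and AF030088UTR#1_at were clearly brighter on both KCl arrays than on both control arrays. Nptx2 gave a different picture on each of its probe sets, Ptgs2 differed little, and Plat stayed within background. By the limma threshold (adjusted p below 0.05), 3 of the 7 probe sets were called higher and 0 lower. Of all tested probe sets 10.8% were called, 5.49% higher and 5.28% lower. On 6 of the 7, both KCl values lay above both control values, as they did on 21.4% of all tested probe sets. The median log2 change over the 7 was 1.06, against −0.10 over all 947. These shares follow in part from how the members were picked.

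**Figure D1:**
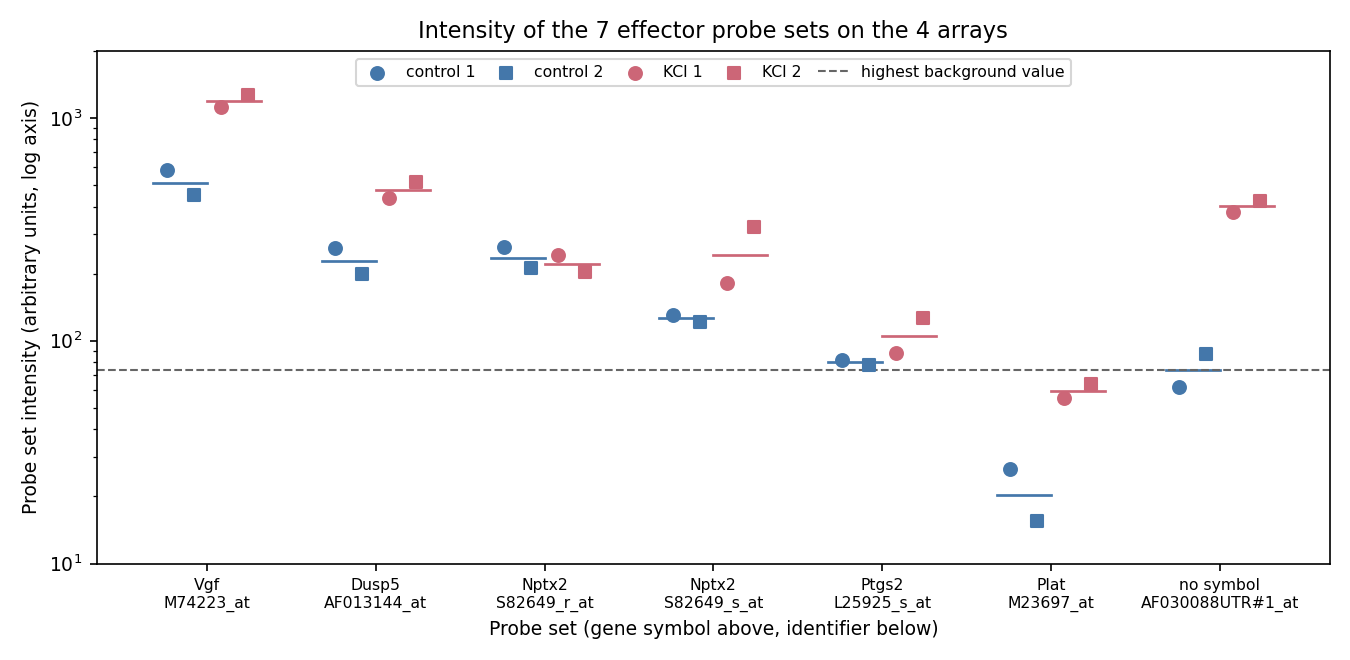
Intensity of each of the 7 probe sets on the 4 arrays (log axis, arbitrary units). Blue symbols are control and red symbols KCl, circles are the first and squares the second array of a group, bars are geometric means of the 2 arrays, and the dashed line is the highest background value, 73.7. The KCl values of Vgf, Dusp5 and AF030088UTR#1_at stand clear of the controls, those of the brighter Nptx2 probe set overlap them, and all Plat values lie under the line.

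Vgf, the secreted peptide precursor, had intensities of 581.5 on control 1, 450.1 on control 2, 1115.4 on KCl 1 and 1266.6 on KCl 2. Both KCl arrays were far above both controls, and the lower KCl value was 1.92 times the higher control value. The mean went from 516 ± 93 to 1191 ± 107 (SD, n = 2 arrays per group), a 2.32-fold difference with a log2 change of 1.22 ± 0.16 (SE). By size of rise Vgf stood 48th of the 947 probe sets. It has 1 probe set on the array, so no second measure of the transcript was at hand.

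Dusp5, the nuclear ERK phosphatase, read 259.6 and 200 in controls and 438.4 and 513.2 after KCl. The groups did not overlap, and the lower KCl value was 1.69 times the higher control value. The mean went from 230 ± 42 to 476 ± 53 (SD, n = 2 arrays per group), which is 2.08-fold and a log2 change of 1.06 ± 0.19 (SE). It stood 58th by size of rise, and it too has a single probe set.

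AF030088UTR#1_at had the widest separation of the 7. Its intensity was 62.0 on control 1, 87.6 on control 2, 379.9 on KCl 1 and 421.7 on KCl 2. Both KCl arrays were at least 4.34 times either control array, a gap that 10 of the 947 probe sets reached, this one included. The mean went from 75 ± 18 to 401 ± 30 (SD, n = 2 arrays per group), 5.43-fold, with a log2 change of 2.44 ± 0.24 (SE). The control values straddle the highest background value of 73.7, so the resting level is poorly fixed and the fold depends on that background. Of the 89 tested probe sets without a symbol it had the largest log2 change. Of those 89, 5 were called higher, a share close to the 5.49% of all tested probe sets.

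Nptx2, the AMPA receptor clustering pentraxin, is measured by a pair of probe sets, S82649_r_at and S82649_s_at, named after the same sequence record. In the array maker's naming, the r suffix marks a set for which a probe selection rule was relaxed, and the s suffix a set whose probes may match more than one transcript. S82649_r_at read 262.1 and 212.2 in controls and 241.5 and 202.8 after KCl. Its groups overlapped, and its log2 change was −0.09 ± 0.20 (SE).

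S82649_s_at read 130.6 and 121.5 in controls and 181.0 and 323.1 after KCl. Both KCl arrays were above the controls, KCl 2 far more than KCl 1, and the log2 change was 0.94 ± 0.29 (SE). The difference between its KCl arrays, 0.84 in log2, was larger than on 90.4% of the tested probe sets, while the same arrays differed by 0.25 on S82649_r_at in the opposite direction. Without KCl 1 its log2 change was 1.36, and without KCl 2 it was 0.52. The KCl level of Nptx2 by this probe set therefore rests on which KCl array is read.

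The log2 changes of the Nptx2 pair, S82649_r_at minus S82649_s_at, differed by −1.03 ± 0.43 (SE). The array has 418 pairs of tested probe sets for 1 gene, from 194 genes, and the median size of this difference was 0.28. The Nptx2 pair lay among the 40 largest. By limma 0 of the 418 pairs were called (0% of pairs), although 48 had p below 0.05 before adjustment, and an ordinary t statistic also called 0, with 46 such pairs.

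**Figure D2:**
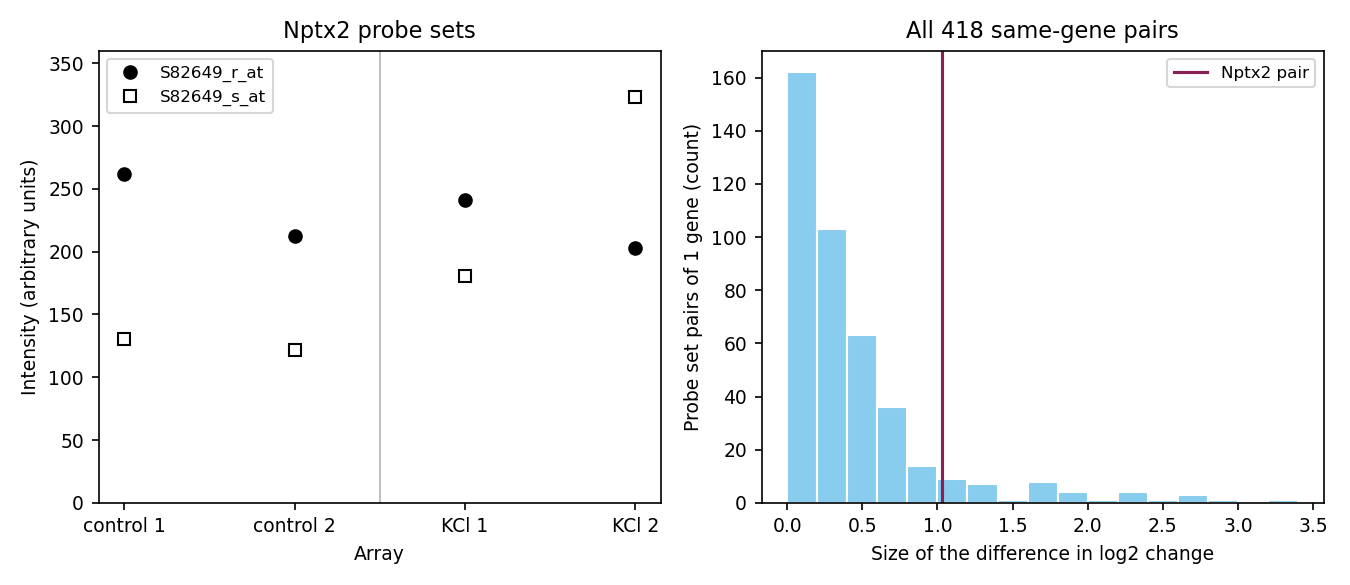
Left, intensity of the Nptx2 probe sets S82649_r_at (filled circles) and S82649_s_at (open squares) on the 4 arrays, on a linear axis. Right, the size of the difference in log2 change between 2 probe sets of 1 gene for all 418 pairs, with the Nptx2 pair (1.03) as a vertical line. Each symbol is to be read along its own series, in which the open squares are higher after KCl, most on KCl 2, and the filled circles are not. The line falls in the upper tail of the pairs.

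Ptgs2, the inducible cyclooxygenase, read 81.7 and 78.2 in controls and 87.8 and 126.0 after KCl. All 4 values were above the highest background value of 73.7, the controls only just. KCl 1 was 1.07 times the higher control and KCl 2 stood apart from the other arrays, so the mean went from 80 ± 2 to 107 ± 27 (SD, n = 2 arrays per group). The log2 change was 0.40 ± 0.31 (SE). It was 0.66 without KCl 1 and 0.14 without KCl 2.

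Plat, tissue plasminogen activator, read 26.5 and 15.5 in controls and 55.1 and 63.7 after KCl. Both KCl values lay above both controls, but all 4 were under 73.7, so no fold is given. The KCl values, though not the controls, are above 42.2, the highest background value once AFFX-PheX-3_at is set aside.

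Members also differed in how the arrays of a group compared. Of the 7 probe sets, 6 were brighter on KCl 2 than on KCl 1, with S82649_r_at of Nptx2 the exception, as were 547 of all 947. Control 1 was above control 2 on 6 of the 7, with AF030088UTR#1_at the exception, and on 527 of the 947. For Vgf and Dusp5 the control arrays differed by 0.37 and 0.38 in log2 and the KCl arrays by 0.18 and 0.23, well under their changes of 1.22 and 1.06. For Ptgs2 the KCl arrays differed by 0.52, more than its change of 0.40.

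Leaving out 1 array moved the log2 change of Vgf between 1.03 and 1.40, of Dusp5 between 0.87 and 1.25, and of AF030088UTR#1_at between 2.19 and 2.69. Without control 1, and likewise without control 2, only the KCl arrays give a spread, and the count of members called went from 3 to 1, AF030088UTR#1_at.

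**Figure D3:**
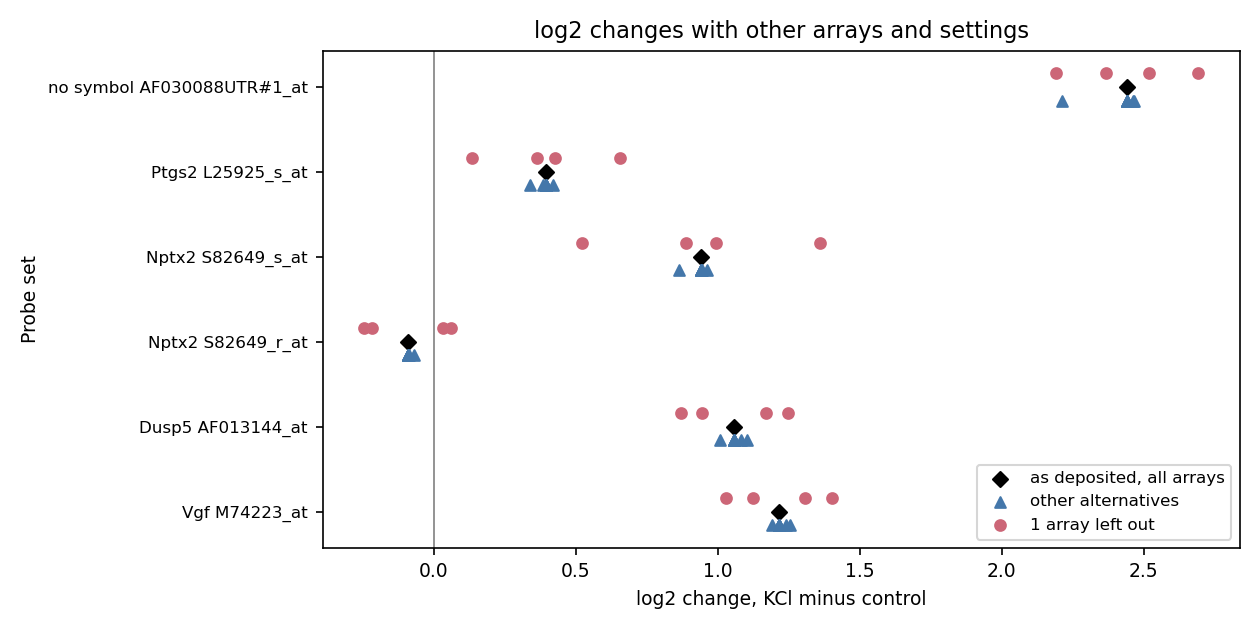
log2 change (KCl minus control) of 6 of the probe sets, with black diamonds for all arrays as deposited, red circles for each array left out in turn and blue triangles for other normalizations, filters and models. Plat is not drawn because its values lie within background. The changes of Vgf, Dusp5 and AF030088UTR#1_at stay between 0.87 and 2.69, and S82649_r_at of Nptx2 falls on both sides of 0.

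Genes known to work with the members, and other activity-regulated effectors, were read from the same fit, each by its brightest tested probe set. Both kinds are counted as partner genes. Of 108 partner genes listed, 21 were on the array by symbol and 20 were tested. Only Bdnf and Kcnf1 were called higher and none lower, and 18 did not pass (5.49% of all probe sets were called higher and 5.28% lower). Both were listed only as other effectors, and no gene listed as working with a member was called. Before adjustment 7 of the 20 genes had p below 0.05 in limma, as did 145 of all 570 genes tested. With an ordinary t statistic, which called 0, 4 did, as did 94 of the 570. The same 145 and 94 of 570 stand beside each list below. The median log2 change was −0.23, against −0.09 over all 570 genes tested.

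Of the other activity-regulated effectors, 4 of 19 listed were tested, with a median log2 change of 0.86. The list was chosen with earlier results of these data known, so its counts are descriptions and support nothing. Bdnf, the neurotrophin gene, read 211.9 and 161.6 in controls and 1131 and 1031 after KCl on its brightest probe set, a 5.84-fold rise, and 5 of its 7 probe sets passed. Kcnf1, which encodes a modulatory potassium channel subunit, read 187 and 184 in controls and 514 and 470 after KCl, a 2.65-fold rise. Without control 1, and likewise without control 2, Kcnf1 did not pass and Bdnf did. Syt4, a synaptotagmin of dense-core vesicles and the 1 tested gene listed for peptide secretion beside Vgf, had a log2 change of 0.31 ± 0.13 and did not pass on that probe set. Its dimmer probe set passed, at 1.35-fold. Penk, which encodes the precursor of enkephalin peptides, had −0.21 ± 0.23 (SE), and its dimmer probe set had the opposite sign (0.24 ± 0.33).

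In the ERK pathway, on which DUSP5 acts, 3 of 22 listed genes were tested and 0 passed in limma. Before adjustment 1 had p below 0.05 in limma and 1 with an ordinary t statistic, which called 0. All 3 encode kinases upstream of ERK. On their brightest probe sets the KCl values lay below the controls, as on 36.5% of all tested probe sets. Araf, a RAF kinase gene, had a log2 change of −0.35 ± 0.13, Map2k2 −0.21 ± 0.10 and Map2k1 −0.21 ± 0.13 (SE). A dim probe set of Map2k1 had the opposite sign (0.32 ± 0.33). Dimmer probe sets of Araf (−0.05 ± 0.19) and Map2k2 (−0.06 ± 0.13) overlapped between groups. Further ones of Map2k2 (−0.12 ± 0.11) and Map2k1 (−0.18 ± 0.13) did not overlap. Without KCl 2 Araf passed as lower. No other dual-specificity phosphatase gene was found by symbol.

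Among the pentraxin partners and AMPA receptor genes, 5 of 6 listed were tested, and on all 5 both KCl arrays were below both controls, which holds for 36.5% of all tested probe sets. In limma 0 of the 5 passed. Before adjustment 2 had p below 0.05 in limma and 0 with an ordinary t statistic, which called 0. The median log2 change was −0.31. Gria1, an AMPA receptor subunit gene, had −0.50 ± 0.15 (adjusted p = 0.071) and Gria2 −0.42 ± 0.15 (adjusted p = 0.13), while a dim probe set of Gria1 had 0.16 ± 0.48. Nptxr, the membrane-bound pentraxin that assembles with NPTX2, read 4566 and 4667 in controls and 3636 and 4285 after KCl, a log2 change of −0.23 ± 0.11 (SE). A dimmer probe set of Nptxr had a larger change, −0.47 ± 0.14, which did not pass in limma (adjusted p = 0.071). Gria1 passed as lower without KCl 1, and Gria2 without KCl 2.

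For prostaglandins, 3 of 18 listed genes were tested and 0 passed in limma. Before adjustment 0 had p below 0.05 in limma and 0 with an ordinary t statistic. Ptgs1, the constitutive relative of Ptgs2, lay within background in both groups. The prostaglandin receptor genes Ptgfr and Ptger3 had log2 changes of −0.44 ± 0.36 and −0.20 ± 0.20 (SE), and both overlapped between groups. The dimmer probe set of Ptger3 did not overlap, with a log2 change of −0.76 ± 0.28 that did not pass (adjusted p = 0.14).

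In the plasminogen system Serpine2 was the 1 gene tested of 15 listed. It encodes protease nexin-1, a serpin that blocks plasminogen activators and thrombin. It read 184.6 and 202.0 in controls and 375.5 and 218.4 after KCl, with a log2 change of 0.57 ± 0.26 (SE), high on KCl 1 alone. Limma did not call it (p above 0.05 also before adjustment, and with an ordinary t statistic), but without KCl 2 it passed as higher.

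Of the genes listed for Homer, 4 of 19 were tested and 0 passed in limma. Before adjustment Cacna1d alone had p below 0.05 in limma, and 1 gene with an ordinary t statistic, which called 0. Cacna1d, an L-type calcium channel gene, had a log2 change of −0.67 ± 0.25 (adjusted p = 0.13). Dlg4, the gene of the scaffold PSD-95, had −0.23 ± 0.11, and Itpr1, the receptor that releases calcium from internal stores, −0.39 ± 0.22 (SE). Grm5, a metabotropic glutamate receptor bound by Homer, had 0.19 ± 0.19 (SE). The KCl and control arrays of all 4 did not overlap, nor did those of 58% of all tested probe sets. Homer1 itself was not found by symbol.

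**Figure D4:**
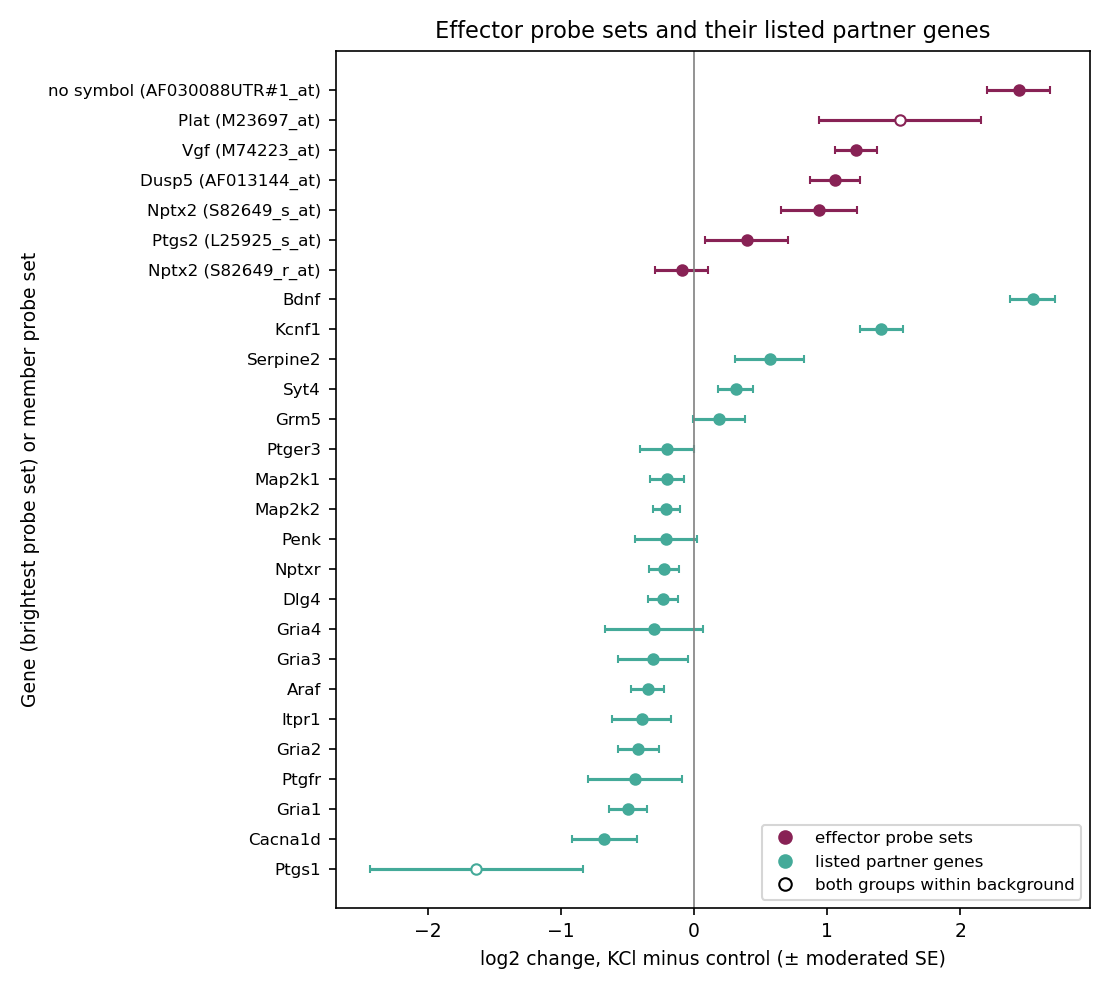
log2 change (KCl minus control) with its moderated SE for the 7 effector probe sets (purple) and the 20 tested partner genes by their brightest probe set (green). Open symbols mark probe sets with both groups within background. Bdnf at 2.55 and Kcnf1 at 1.41, both listed only as other activity-regulated effectors, are the genes that passed. Of the 20, 15 lie to the left of 0, as do 341 of all 570 genes tested.

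By their centred values over the 4 arrays, Vgf and Dusp5 were among each other's closest genes. Likeness was measured as the distance between log2 values centred on their mean over the 4 arrays, so a smaller distance means a closer match. The values were not scaled, so the distance also takes in the size of the KCl change. The members were chosen in part by that change, so nearness of 1 member to another follows in part from the choice. For Vgf the nearest of 569 other genes were Slc1a3 (0.07), Dusp5 (0.16) and Gsta1 (0.24), and for Dusp5 they were Vgf (0.16), Slc1a3 (0.22) and Gsta1 (0.28). Slc1a3 encodes an astrocyte glutamate transporter, and its nearest probe set, S59158_at, read 453.7, 333.7, 876.1 and 1003 on control 1, control 2, KCl 1 and KCl 2. The likeness is that of this probe set. Another, S75687_s_at, also passed but read 75.5, 113.1, 328.5 and 237.9, the reverse order within each group. X63744_at, with a log2 change of 0.27 ± 0.29 (SE), and X63744_g_at, with 1.04 ± 0.53, did not pass.

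AF030088UTR#1_at was nearest to a Bdnf probe set (0.22), to Fosl2 (0.34) and to Crem (0.40), which had log2 changes of 2.42, 2.40 and 2.40. That Bdnf probe set, S71196mRNA_s_at, read 30.7 and 43.2 in controls and 206.0 and 183.9 after KCl. Its controls are within background, so its log2 change and this distance depend on that background, as they do in part for AF030088UTR#1_at itself. The nearest to the brighter Nptx2 probe set were Sult2a1 (0.07), Rab4a (0.09) and Pja2 (0.11), and to Ptgs2 they were Nmbr (0.12), Casp6 (0.19) and Npy (0.20). Sult2a1 lay within background on all arrays and Nmbr and Casp6 in the controls. None is given for Plat, whose values lie within background. These are distances over 4 arrays and carry no test.

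Markers of astrocytes were also higher on the arrays on which the effectors were higher. Of 7 astrocyte markers tested, 6 were called higher and none lower by limma, and an ordinary t statistic called 0. Of all 570 genes tested, limma called 29 higher and 29 lower. The summed intensity of the 7 markers was 5220 to 5484 in controls and 9974 to 12551 after KCl. Slc1a2, the transporter gene that marks mature astrocytes, was within background in both groups. The summed intensity of 10 neuron markers was 32468 to 33786 in controls and 30902 to 31495 after KCl, and 1 of them, Snap25, was called higher. Snap25 passed on its brightest probe set only, and its dimmer ones had rises that were not called. The median ratio of KCl 1 to KCl 2 was 1.33 over the astrocyte markers and 0.954 over all genes tested. Of the 7 effector probe sets, 6 were brighter on KCl 2, as were 547 of all 947 tested. As a sign of RNA integrity, hexokinase controls at the 3′ end were 2.25 and 2.00 times as bright as at the 5′ end in controls, and 2.49 and 2.67 times after KCl. The same ratio was 1.17 to 1.23 for Gapdh and 1.08 to 1.12 for β-actin, with the groups overlapping. The part of the markers and of RNA integrity in the effector values was not tested. None of 5 oligodendrocyte, 2 microglial or immune and 2 endothelial or fibroblast markers passed in limma. Before adjustment 0, 0 and 1 of them had p below 0.05, in limma and likewise with an ordinary t statistic, which called 0. Of all 570 genes tested, 145 had p below 0.05 before adjustment in limma and 94 with an ordinary t statistic.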

How the data were processed

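Per the labels' protocols, biotin-labelled cRNA from total RNA was hybridized to Affymetrix arrays, 1 per sample. The deposited values are probe set intensities; how the probes were combined and scaled is not given in the sources used here. Trimmed means of the 4 arrays lay between 502.0 and 502.4, so values were used as deposited and taken to log2.

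Of 1263 probe sets that are not controls, the platform annotation gave 1 symbol to 1137, several to 8 and none to 118. Gene IDs of 1132 matched RefSeq, and 0 symbols changed. The dimmest 25% by mean intensity were left out. KCl and control arrays were compared with limma 3.58.1 (R 4.3.3; lmFit, eBayes with an intensity trend), two-sided, with Benjamini-Hochberg adjustment over 947 probe sets, and the fit was tested on simulated data. For 1 probe set, 2 arrays against 2 cannot reach an exact permutation p below 0.33.

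The members, gene lists and tests were chosen with earlier results of these data known. Named are all member probe sets, listed partners that were called or had the smallest p-values, and the 3 genes nearest to each member except Plat; Penk and Grm5 were named after their values were seen. Alternatives were quantile normalization, median centring, a pseudocount, other filters, a replicate block, other variance models and leaving out each array.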

Additional observations from a re-analysis of the deposited data

How the results depend on the processing

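The calls depend on how limma shares variances among probe sets. With the ordinary t statistic 0 probe sets were called higher and 0 lower of 947, 0 members and 0 partner genes. Without the intensity trend 18 were called higher, 3 lower and 1 member, AF030088UTR#1_at. Probe sets called lower numbered 32 with quantile normalization, 33 without the filter on dim probe sets and 15 with the replicate block, where 35 were called higher. Leaving out 1 array gave 10 to 72 higher, 1 to 106 lower, 1 to 4 members, 1 to 3 partners higher and 0 to 2 lower. Same-gene pairs that differed numbered 2 with quantile normalization, 2 with a pseudocount of 16 and 3 with the dimmest 40% left out. The log2 change of S82649_r_at of Nptx2 ran from −0.24 to 0.061 with 1 array left out, positive without control 1 (0.061) and without KCl 2 (0.034), never passing. No other member changed direction. The difference of the Nptx2 pair kept its sign, from −1.58 to −0.49, and was called in none of the alternatives. The numbers were not taken as pairs, because no label says that a number marks a shared culture. Across probe sets, same-numbered arrays deviated with a correlation of −0.03. The block changed the call of 1 member, Dusp5.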

Other observations

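The array carries 13 further probe sets whose identifiers, like AF030088UTR#1_at, join an AF030086 to AF030091 or AF050659 to AF050664 record with the letters UTR, and the platform table names no gene for them. They were looked at after their values were seen. Of the 8 that were tested, limma called 0. Before adjustment 4 had p below 0.05 in limma, as did 242 of all 947, and 2 with an ordinary t statistic, which called 0. On 5 both KCl arrays lay above both controls, as on 21.4% of all tested probe sets. AF030087UTR#1_at read 292.3 and 193.1 in controls and 411.3 and 390.5 after KCl, with a log2 change of 0.75 ± 0.22 (SE). AF030089UTR#1_at read 456.2 and 397.4 in controls and 612.0 and 582.3 after KCl, with a log2 change of 0.49 ± 0.14. AF050660UTR#1_at read 10.3 and 47.1 in controls, within background, and 118.7 and 100.8 after KCl. AF050663UTR#1_at read lower after KCl, at 251.3 and 267.4 against 346.5 and 314.8. AF030086UTR#1_at, left out as dim, read 0.9 and 5.3 in controls and 17.4 and 40.1 after KCl, all within background.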
